A study of Homo sapiens with 4 samples.

Results

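The genes described here are 50 human genes of ribosome biogenesis: subunits and factors of RNA polymerase I, which transcribes ribosomal RNA, and the proteins that modify, cut and fold that RNA into ribosomal subunits. They were chosen by symbol, with earlier results of these data known, so comparisons of the list with all tested genes are descriptions. Each of the 50 was found once among the 60662 genes of the deposited count table. All 50 passed the filter on low counts, which left 16451 genes, and the lowest count of any of them in any library was 217.

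The cells were U937, an established human myeloid line that came from a histiocytic lymphoma, grown for 72 h without phorbol 12-myristate 13-acetate (PMA) or with 10 nM PMA. PMA switches on protein kinase C, and the labels give macrophage-like differentiation as the purpose. All cells were kept in RPMI1640 with fetal bovine serum and Penicillin-Streptomycin, and sequencing was on the Ion Proton. Each condition has 2 libraries of poly(A) RNA, 1 from lot 1 and 1 from lot 2. All cells are of 1 tumour line. Whether the lots were separate cultures is not stated in the labels. A p-value here sets the difference between the groups against the spread among these 4 libraries, estimated with the help of all tested genes. That spread may be only technical variation. Levels are given as normalised CPM, a gene's count scaled to a common library size with TMM factors. Fold changes compare PMA with untreated cells on the log2 scale, as the value fitted by edgeR with its standard error.

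Ribosomes are built mainly in the nucleolus. RNA polymerase I makes a long precursor RNA, small nucleolar ribonucleoproteins (snoRNPs) modify it, and a large assembly, the small-subunit processome, folds and cuts its first part. Separate sets of factors then mature the small and the large subunit and hand them to the cytoplasm. Growing and dividing cells spend much of their energy on this pathway, and its genes are textbook targets of MYC, which binds the DNA sequence CACGTG together with its partner MAX.

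Library totals were 35739833 to 54915928 counts, and the 50 genes took 0.584% and 0.831% of them without PMA (lot 1, then lot 2) and 0.227% and 0.224% with it. Mitochondrial genes took 2.81% to 8.58%. In bulk RNA, fewer cells of a kind and less RNA per cell cannot be told apart, and CPM shows a share of the library, not an amount per cell. Of 11 monocytic genes, 4 rose with PMA (ITGAX, ITGAM, CD14 and CD68), 0 fell and 7 did not pass the test used below, while 4.29% of tested genes rose. The log2 fold changes of the 11 ran from −1.63 to 14.2. Their summed level was 1037 and 1835 CPM without PMA and 5214 and 5305 CPM with it. Markers of T cells, erythroid cells, fibroblasts and endothelium (20 genes) had no count in any library, and those of epithelium had none outside PMA lot 2 (EPCAM, 0.0216 CPM). B-cell markers summed to 7.23 and 10.0 CPM without PMA and 4.79 and 8.89 CPM with it. Of 6 proliferation genes, 4 fell, while 2.02% of tested genes fell. The summed level of the 6 was 1580 and 1601 CPM without PMA and 193 and 119 CPM with it. The part of these 6 genes in the results below was not tested.

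With PMA, 6 of the 50 genes fell and 0 rose by edgeR's quasi-likelihood test at an adjusted p under 0.05, while 2.02% of all tested genes fell and 4.29% rose. The genes that fell were the methyltransferase FBL, the polymerase subunit POLR1E, the pseudouridine synthase DKC1, the nuclease NOB1, the snoRNP chaperone NOLC1 and the nucleolar chaperone NPM1. The other 44 did not pass, although 49 of the 50 had a fold change below 0. The median log2 fold change of the 50 was −1.31 (a level 2.48 times lower), from −3.32 to 0.45, against 0.00 for all tested genes. Both PMA libraries were below both untreated libraries for 45 of the 50 genes, as they were for 29.4% of all tested genes.

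With an unadjusted p under 0.05 there were 31 of the 50 genes, all lower with PMA, against 12.5% of tested genes lower at that level. DESeq2 called 29 lower and 0 higher (10.2% of tested genes lower), and 11 were lower with a filter of 5 CPM in 2 libraries (6.65% of the genes that filter kept). Leaving out PMA replicate 1 or PMA replicate 2 left 0 of the 50 called, while 1.51% and 0.438% of all tested genes were lower. Leaving out untreated replicate 1 gave 29, with 6.21% of tested genes lower, so that calls rose over the whole table too. Without PMA replicate 1 the adjusted p of the 6 genes ranged from 0.0615 (FBL) to 0.253 (NPM1), and without PMA replicate 2 from 0.0950 (FBL) to 0.308 (NOLC1). With the lot as a replicate block 5 were lower, against 1.48% of tested genes.

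The authors' deposited table calls 5 of the 50, all lower (FBL, DKC1, NPM3, NOB1 and BOP1), against 0.742% of its genes lower (1.67% of those with a count), and 3 of the 5 were also called by edgeR.

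**Figure D1:**
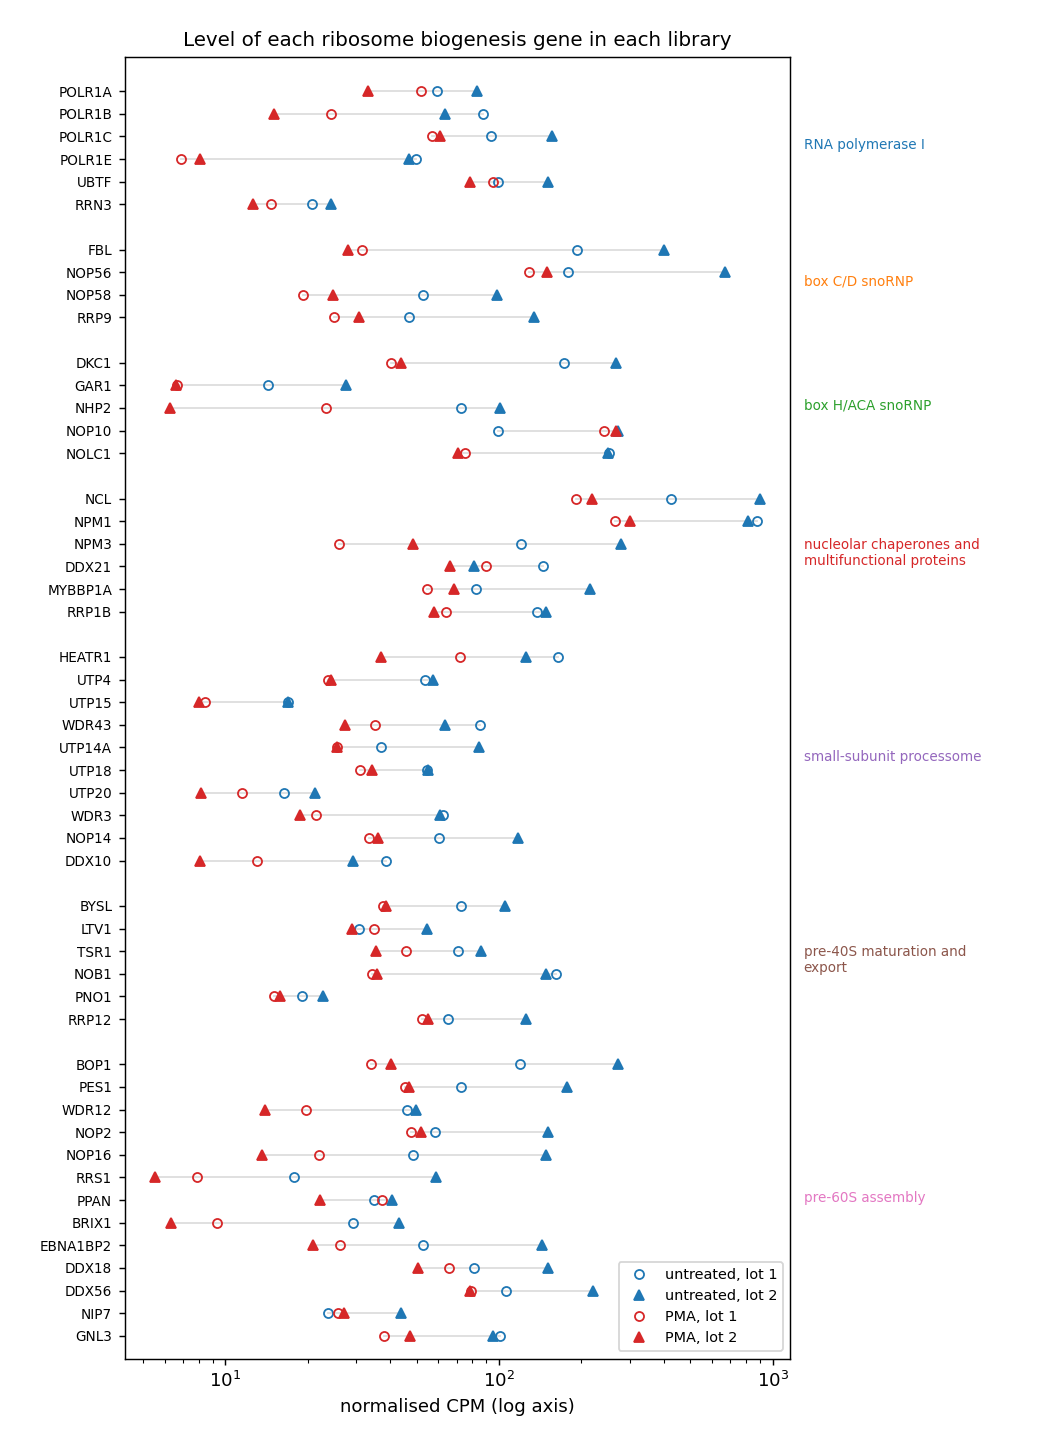
Normalised CPM (log axis) of each of the 50 genes in each of the 4 libraries, grouped by step of ribosome assembly; blue symbols are untreated and red symbols PMA libraries, open circles lot 1 and filled triangles lot 2. In 45 of the 50 genes both red symbols lie to the left of both blue ones, while for NOP10 the PMA libraries (242 and 269 CPM) lie between the untreated ones (99.5 and 273 CPM).

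The sequence CACGTG was looked for in the 300 bases around the RefSeq start of each gene (250 before and 50 after, build GRCh38.p14), where the table held 42 of the 50 genes. It reads the same on both strands. It was present in 16 of the 42 windows (38.1%), in 10.3% of the windows of tested genes and in 7.43% of all 27305 windows. A copy lay wholly before the start in 6 of the 42, and in 930 of the 10233 windows of tested genes. In 9 of the 16 genes the sequence stood only after the start. The last 30 bases of the window were found in an annotated transcript of the same gene for 36 of the 42. In 10 of the 42 genes (23.8%) a copy began within 20 bases of the start, compared with 1.89% of tested genes. Of these, 9 are printed as 30 bases centred on the site, in lower case with CACGTG in capitals, to show where the site stands, 4 of them from the small-subunit processome and the others from 4 further steps:
FBL: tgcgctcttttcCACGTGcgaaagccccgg
RRP9: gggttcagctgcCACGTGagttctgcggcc
NOP10: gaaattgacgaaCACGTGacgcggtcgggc
UTP4: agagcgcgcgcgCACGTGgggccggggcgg
UTP18: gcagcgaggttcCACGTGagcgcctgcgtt
UTP20: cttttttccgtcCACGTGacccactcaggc
WDR43: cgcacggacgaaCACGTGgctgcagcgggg
PNO1: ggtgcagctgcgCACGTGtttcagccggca
PES1: tccttggcagggCACGTGcgggaggaagtg
The windows are FBL at chr19:39846356-39846385 (minus strand), RRP9 at chr3:51941892-51941921 (minus strand), NOP10 at chr15:34343130-34343159 (minus strand), UTP4 at chr16:69132621-69132650 (plus strand), UTP18 at chr17:51260538-51260567 (plus strand), UTP20 at chr12:101280083-101280112 (plus strand), WDR43 at chr2:28894658-28894687 (plus strand), PNO1 at chr2:68157885-68157914 (plus strand), and PES1 at chr22:30591880-30591909 (minus strand). Counting the first transcribed base as 1 and the base before it as −1, the site begins at 7 in FBL, −5 in RRP9, −11 in NOP10, −16 in UTP4, 5 in UTP18, −10 in UTP20, 4 in WDR43, 10 in PNO1 and 14 in PES1. A match describes these letters and shows no binding. The median log2 fold change was −1.23 in the 16 genes with it and −1.54 in the 26 without. Of these, 1 (FBL) and 3 fell, while 2.02% of tested genes fell, and the difference between the 16 and the 26 was not tested. The windows of POLR1E, NOP58, NOLC1, RRP1B, RRP12, BOP1, RRS1 and DDX18 were not analysed here.

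Within RNA polymerase I, POLR1E fell and the other 5 genes did not pass the test. POLR1E, a subunit found only in this polymerase that helps it to start and to elongate, was at 49.7 and 47.1 CPM in untreated cells and 6.87 and 8.09 CPM in PMA-treated cells in lots 1 and 2. Its libraries were close to each other in each condition, and the groups lay far apart (log2 fold change −2.69 ± 0.38, edgeR adjusted p = 0.0310, 6.46-fold lower). POLR1B, one of the large catalytic subunits, was at 87.8 and 63.4 CPM untreated and 24.4 and 15.1 CPM after PMA (−1.94 ± 0.43, edgeR adjusted p = 0.0639). The groups did not overlap, but POLR1B passed the test in 2 of the 11 alternatives. The largest subunit, POLR1A, was at 59.2 and 83.1 CPM without PMA and 52.1 and 33.2 CPM with it (−0.74 ± 0.41), where untreated lot 1 and PMA lot 1 were close. POLR1C, which RNA polymerase III also uses, was at 93.5 and 157 CPM in untreated cells and 56.9 and 61.0 CPM in PMA-treated cells (−1.09 ± 0.38).

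The factors that bring the polymerase to the ribosomal DNA did not pass either. UBTF, the architectural protein of active ribosomal genes, was at 99.0 and 151 CPM untreated and 95.2 and 78.7 CPM after PMA (−0.52 ± 0.36, edgeR adjusted p = 0.430). Its PMA level in lot 1 was nearly that of the untreated library of that lot. RRN3, which couples the polymerase to its promoter factors, was at 20.8 and 24.2 CPM without PMA and 14.7 and 12.6 CPM with it (−0.72 ± 0.40). Reads of RRN3 are uncertain because 3 pseudogenes of it were counted apart, with a summed level of 28.4 and 22 CPM without PMA and 11.2 and 9.13 CPM with it. The differences among the 6 genes of this step were not tested.

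Box C/D snoRNPs guide methylation of ribosomal RNA, and FBL (fibrillarin) is their methyltransferase. FBL was at 193 and 401 CPM in untreated cells and 31.6 and 28.0 CPM in PMA-treated cells in lots 1 and 2. Untreated lot 2 was about 2 times untreated lot 1, and both were far above either PMA library. FBL had the lowest fold change of the 50 genes (−3.32 ± 0.48, edgeR adjusted p = 0.0310, 9.97-fold lower). The scaffold proteins NOP56 and NOP58, which sit beside FBL in the same particle, did not pass. NOP56 was at 178 and 672 CPM untreated and 129 and 149.7 CPM after PMA (−1.61 ± 0.66, edgeR adjusted p = 0.205), so that untreated lot 1 was nearer to the PMA libraries than to untreated lot 2. NOP58 was at 53.0 and 98.4 CPM without PMA and 19.2 and 24.7 CPM with it (−1.79 ± 0.46, edgeR adjusted p = 0.0814). RRP9, the protein of the U3 particle that serves in cutting rather than methylation, was at 47.0 and 135 CPM in untreated cells and 24.9 and 30.8 CPM in PMA-treated cells (−1.71 ± 0.59).

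Box H/ACA snoRNPs convert uridine to pseudouridine, and the same 4 core proteins also serve in telomerase. Their enzyme DKC1 (dyskerin) was at 173 and 268 CPM untreated and 40.3 and 43.8 CPM after PMA, with no overlap and close PMA values (−2.39 ± 0.37, edgeR adjusted p = 0.0351, 5.25-fold lower). NHP2 was at 72.3 and 101 CPM without PMA and 23.3 and 6.29 CPM with it (−2.55 ± 0.71, edgeR adjusted p = 0.0954). Its PMA libraries differed more than 2-fold, the only such pair among the 50 genes, and it did not pass. GAR1 was at 14.3 and 27.6 CPM in untreated cells and 6.66 and 6.60 CPM in PMA-treated cells (−1.66 ± 0.52, edgeR adjusted p = 0.121). NOP10, the smallest of the core proteins, was at 99.5 and 273 CPM untreated and 242 and 269 CPM after PMA. Its groups overlapped, and its log2 fold change was the only one above 0 among the 50 genes (0.45 ± 0.53, edgeR adjusted p = 0.650). That value kept its sign under the other scalings and filters and turned to −0.16 without untreated replicate 1.

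Per kb of transcript, the NOP10 mRNA stood highest of the H/ACA core protein genes, at 179.6 and 493 CPM per kb without PMA and 436 and 485 CPM per kb with it. NHP2 stood at 83.6 and 117 and 27.0 and 7.28 CPM per kb, DKC1 at 67.0 and 104 and 15.6 and 17.0, and GAR1 at 11.7 and 22.6 and 5.44 and 5.39, in each case untreated before PMA. In every library NOP10 was highest and GAR1 lowest of the 4. NHP2 was above DKC1 in both untreated libraries and in PMA lot 1, and below it in PMA lot 2. Among FBL, NOP56, NOP58 and RRP9, the box C/D protein genes in the list, FBL was the highest per kb in both untreated libraries (166 and 345 CPM per kb). NOP56 was the highest of them in both PMA libraries (53.8 and 62.4 CPM per kb, against 27.2 and 24.1 for FBL). These lengths come from GENCODE release 29, which may not be the authors' annotation, and the change of order was not tested.

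**Figure D2:**
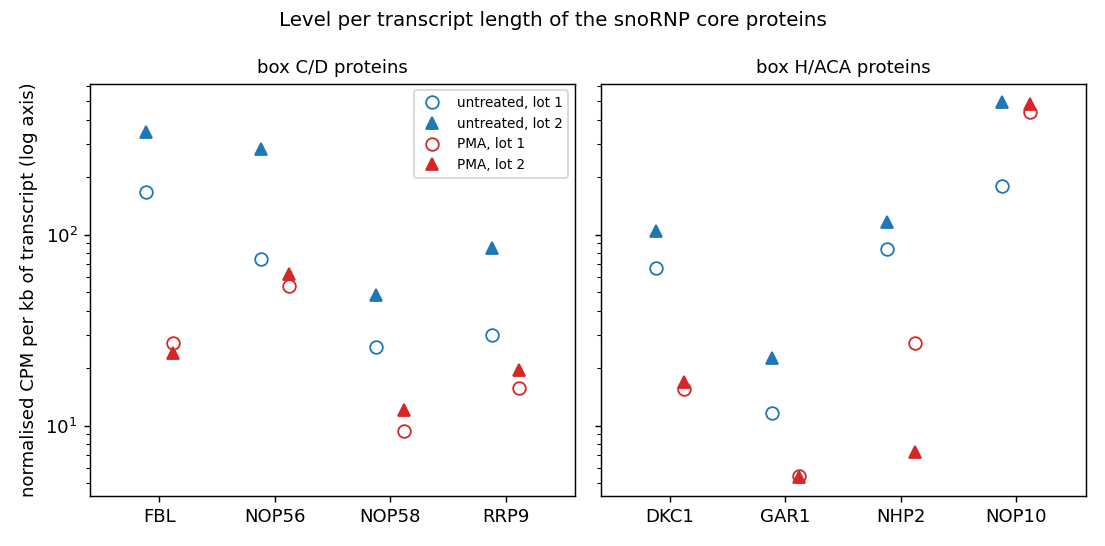
Normalised CPM per kb of transcript (log axis) of FBL, NOP56, NOP58 and the U3 protein RRP9 (box C/D) and of the box H/ACA core proteins. Each library has 1 symbol (blue untreated, red PMA, open circles lot 1, filled triangles lot 2). NOP10 lies at 436 and 485 CPM per kb in the PMA libraries, while DKC1 lies at 15.6 and 17.0.

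NOLC1 (Nopp140), a chaperone that carries both kinds of snoRNP through the nucleus, was at 253 and 251 CPM without PMA and 75.3 and 70.7 CPM with it. Replicates agreed closely in both conditions (−1.79 ± 0.29, edgeR adjusted p = 0.0382, 3.45-fold lower). With the lot as a replicate block its adjusted p was 0.0532, above the threshold.

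Among the abundant nucleolar proteins, NPM1 (nucleophosmin), a histone and ribosome chaperone, fell from 873 and 815 CPM to 265 and 302 CPM in lots 1 and 2 (−1.58 ± 0.28, edgeR adjusted p = 0.0454, 2.98-fold lower). The groups were well apart, but its adjusted p was 0.0627 with the replicate block and 0.0554 without a filter on low counts. The 46 NPM1 pseudogenes in the table, with which reads can be shared, summed to 54.0 and 57.9 CPM without PMA and 19.1 and 23.4 CPM with it. NCL (nucleolin), an RNA-binding protein of the nucleolus, was at 424 and 900.0 CPM in untreated cells and 191 and 219 CPM in PMA-treated cells and did not pass (−1.69 ± 0.45, edgeR adjusted p = 0.0874). Its untreated libraries differed by more than 2-fold. NPM3, a relative of NPM1, was at 120.2 and 279 CPM untreated and 26.1 and 48.4 CPM after PMA (−2.42 ± 0.58, edgeR adjusted p = 0.0728). With the replicate block NPM3 passed (adjusted p = 0.0404).

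The other 3 genes of this group did not pass. MYBBP1A, a nucleolar protein that binds MYB and p53, was at 82.5 and 215 CPM without PMA and 54.7 and 68.6 CPM with it (−1.27 ± 0.53), and RRP1B, a nucleolar partner of protein phosphatase 1, at 138 and 149 CPM in untreated cells and 64.3 and 57.8 CPM in PMA-treated cells (−1.23 ± 0.30). DDX21, an RNA helicase that acts on both ribosomal RNA transcription and processing, was at 145 and 81.2 CPM untreated and 89.7 and 66.5 CPM after PMA (−0.54 ± 0.42, edgeR adjusted p = 0.484). Its groups overlapped, since untreated lot 2 was below PMA lot 1.

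In the small-subunit processome 0 of 10 genes passed edgeR's test, while 2.02% of tested genes fell. At an unadjusted p under 0.05 there were 6, and DESeq2 called 6, all lower (12.5% and 10.2% of tested genes lower). In all 10 both PMA libraries were below both untreated ones, as in 29.4% of tested genes. The log2 fold changes lay between −1.68 and −0.75 (median −1.25). HEATR1, UTP4, UTP15 and WDR43 belong to the module that joins the precursor while it is still being transcribed. HEATR1 was at 165 and 125 CPM without PMA and 72.1 and 37.2 CPM with it (−1.41 ± 0.44, edgeR adjusted p = 0.121). UTP4 was at 53.6 and 57.2 CPM in untreated cells and 23.7 and 24.4 CPM in PMA-treated cells, UTP15 at 16.9 and 16.9 CPM untreated and 8.41 and 8.0 CPM after PMA and WDR43 at 85.1 and 63.7 CPM without PMA and 35.3 and 27.4 CPM with it. In these 4 genes the level with PMA was between 29.7% and 50.1% of the untreated level of the same lot.

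The helicase DDX10 had the lowest fold change of the step, at 38.5 and 29.3 CPM in untreated cells and 13.0 and 8.09 CPM in PMA-treated cells (−1.68 ± 0.45, edgeR adjusted p = 0.0891). WDR3, a propeller protein of the UtpB module, had the smallest p (−1.61 ± 0.35, edgeR adjusted p = 0.0611), at 62.6 and 60.8 CPM untreated and 21.5 and 18.8 CPM after PMA. UTP18, another propeller protein of UtpB, had the fold change nearest to 0, at 54.6 and 55.0 CPM without PMA and 31.1 and 34.2 CPM with it (−0.75 ± 0.33, edgeR adjusted p = 0.236). Both UtpB proteins were lower in each PMA library than in either untreated one. NOP14, a scaffold of the small-subunit precursor, was at 60.3 and 117 CPM in untreated cells and 33.6 and 36.0 CPM in PMA-treated cells (−1.35 ± 0.44). UTP14A, which switches on the helicase that takes the processome apart, was at 37.0 and 84.5 CPM untreated and 25.7 and 25.5 CPM after PMA (−1.25 ± 0.50), and UTP20, one of the longest proteins of the assembly, at 16.4 and 21.2 CPM without PMA and 11.5 and 8.13 CPM with it (−0.94 ± 0.46).

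After the processome is taken apart, the small-subunit precursor is finished by export factors and a nuclease. NOB1, the nuclease that makes the final cut in the RNA of the small subunit, was at 161 and 148 CPM in untreated cells and 34.3 and 35.9 CPM in PMA-treated cells. Its values agreed between lots in both conditions (−2.14 ± 0.31, edgeR adjusted p = 0.0311, 4.40-fold lower). PNO1, a partner of NOB1 on the small-subunit precursor, was at 19.1 and 22.8 CPM untreated and 15.1 and 15.8 CPM after PMA (−0.44 ± 0.39, edgeR adjusted p = 0.545). The PNO1 groups did not overlap, yet all 4 values lay near one another. The difference between NOB1 and PNO1 was not tested.

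BYSL, which joins the small subunit early, was at 72.7 and 105 CPM without PMA and 37.7 and 38.7 CPM with it (−1.22 ± 0.36), TSR1, a GTPase-like factor of the late precursor, at 70.7 and 86.2 CPM in untreated cells and 45.9 and 35.5 CPM in PMA-treated cells (−0.95 ± 0.35), and RRP12, an export factor, at 65.2 and 125 CPM untreated and 52.5 and 55.1 CPM after PMA (−0.82 ± 0.43). LTV1, an assembly factor released in the cytoplasm, was at 30.7 and 54.5 CPM without PMA and 34.8 and 29.1 CPM with it. Its groups overlapped, with untreated lot 1 between the PMA libraries (−0.41 ± 0.43, edgeR adjusted p = 0.604).

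In pre-60S assembly 0 of 13 genes passed edgeR's test (2.02% of tested genes fell). An unadjusted p under 0.05 was found for 8, all lower (12.5% of tested genes lower), and DESeq2 called 8, all lower (10.2%). BOP1, PES1 and WDR12 form the PeBoW complex, which is needed to process the RNA of the large subunit. BOP1 was at 119 and 273 CPM in untreated cells and 34.1 and 40.2 CPM in PMA-treated cells (−2.40 ± 0.50, edgeR adjusted p = 0.0584). PES1 was at 72.7 and 177 CPM untreated and 45.4 and 46.9 CPM after PMA (−1.44 ± 0.51, edgeR adjusted p = 0.154) and WDR12 at 46.1 and 49.7 CPM without PMA and 19.6 and 13.9 CPM with it (−1.51 ± 0.39, edgeR adjusted p = 0.0814). No library of any of these 3 genes crossed into the other group, and the untreated libraries of BOP1 and PES1 were more than 2-fold apart. The authors' deposited table calls BOP1 lower (q = 0.0224).

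RRS1, which helps to bring in the particle of the small 5S RNA, was at 17.9 and 59.1 CPM in untreated cells and 7.89 and 5.54 CPM in PMA-treated cells and had the lowest fold change of the step (−2.52 ± 0.70, edgeR adjusted p = 0.0942). NOP16 was at 48.6 and 148 CPM untreated and 22.1 and 13.6 CPM after PMA (−2.46 ± 0.66, edgeR adjusted p = 0.0882), BRIX1 at 29.2 and 43.1 CPM without PMA and 9.33 and 6.32 CPM with it (−2.21 ± 0.46, edgeR adjusted p = 0.0589), and EBNA1BP2 at 52.6 and 143 CPM in untreated cells and 26.1 and 21.0 CPM in PMA-treated cells (−2.05 ± 0.58, edgeR adjusted p = 0.0956). NOP16, BRIX1 and EBNA1BP2 are assembly factors of early large-subunit precursors. In these 4 genes the log2 fold change was under −2, with standard errors from 0.46 to 0.70. GNL3 (nucleostemin), a nucleolar GTPase of stem and tumour cells, was at 101 and 95 CPM untreated and 38.0 and 47.3 CPM after PMA (−1.20 ± 0.33, edgeR adjusted p = 0.0912).

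The RNA helicase DDX18 was at 81.1 and 151 CPM without PMA and 65.5 and 50.6 CPM with it (−1.0 ± 0.43), and the helicase DDX56 at 106 and 220.0 CPM in untreated cells and 79.3 and 78.5 CPM in PMA-treated cells (−1.05 ± 0.44). NOP2, an RNA methyltransferase of the large subunit, was at 58.1 and 151 CPM untreated and 47.8 and 51.8 CPM after PMA (−1.07 ± 0.53). In all 3 both PMA libraries were below both untreated ones, and none passed the test. Nearest to 0 stood the assembly factors NIP7, at 23.8 and 43.8 CPM without PMA and 25.9 and 27.1 CPM with it (−0.35 ± 0.44), and PPAN, at 35.0 and 40.6 CPM in untreated cells and 37.5 and 22.2 CPM in PMA-treated cells (−0.34 ± 0.42, edgeR adjusted p = 0.666), and the groups of both overlapped. PPAN is uncertain because its readthrough gene PPAN-P2RY11, which shares its exons, was counted apart, with 13.0 and 85.9 CPM in untreated lots 1 and 2 and 0 and 32.5 CPM in PMA lots 1 and 2.

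**Figure D3:**
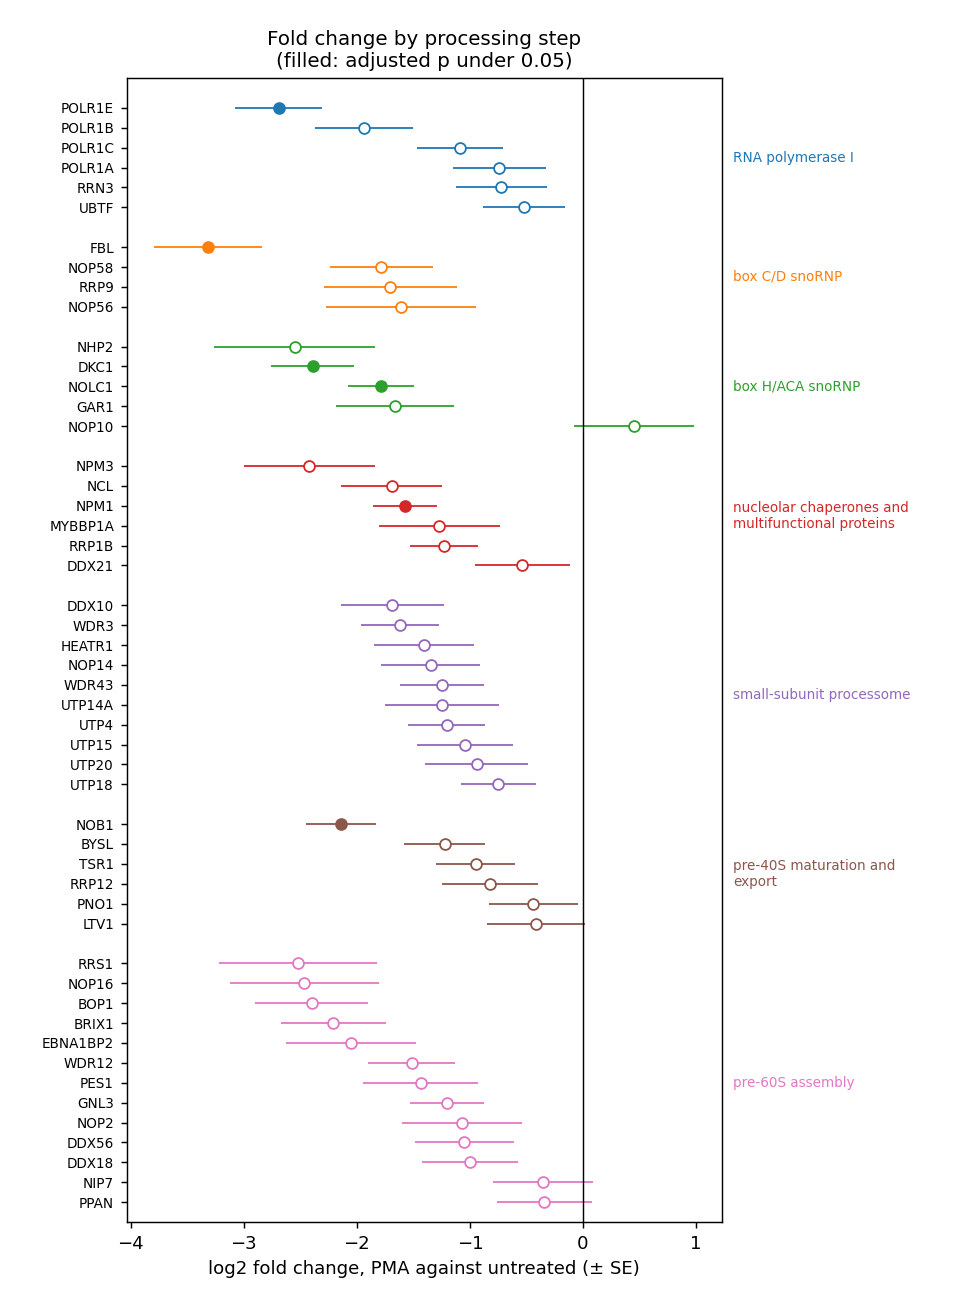
Log2 fold change with PMA of each of the 50 genes by step of ribosome assembly, as the edgeR estimate with its standard error from 2 libraries per group; filled symbols passed an adjusted p under 0.05. The filled symbols are POLR1E, FBL, DKC1, NOLC1, NPM1 and NOB1, and NOP10 (0.45) alone lies above 0.

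The summed level of the 50 genes was 5077 and 7957 CPM without PMA and 2487 and 2462 CPM with it, in lots 1 and 2. Untreated lot 2 was thus 1.57 times untreated lot 1, while the PMA libraries were nearly equal. Untreated libraries were at least 2-fold apart in 15 of the 50 genes (in 37.5% of tested genes), with NOP56, RRS1 and NOP16 among them. PMA libraries were at least 2-fold apart in 1 of the 50, NHP2 (in 20.7% of tested genes). Untreated libraries were further apart than PMA libraries in 31 of the 50 genes and in 64.4% of tested genes. The untreated level was higher in lot 2 in 39 of the 50 genes, and in 44.4% of tested genes.

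Within lots, the median log2 ratio of PMA to untreated was −1.0 in lot 1 and −1.67 in lot 2, and 46 of the 50 genes were lower with PMA in both lots (35.9% of tested genes). At least 2-fold lower in both lots were 25 of the 50 (13.7% of tested genes). The ratio was lower in lot 2 than in lot 1 in 43 of the 50 genes, against 45.5% of tested genes. It was also lower in lot 2 in 77 of 106 other ribosome biogenesis genes, 57 of 79 cytosolic ribosomal protein genes and 6 of 6 proliferation genes. The numbers were 7 of 20 cytosolic aminoacyl-tRNA synthetases and 11 of 20 RNA polymerase III genes. Among the 50 genes the ratios were furthest apart in NHP2 (−1.63 and −3.98 in lots 1 and 2), NOP16 (−1.14 and −3.43) and RRS1 (−1.17 and −3.39). They lay closer together in NPM1 (−1.72 and −1.43), NOB1 (−2.23 and −2.04) and NOLC1 (−1.75 and −1.82), which passed the test, and in UTP4 (−1.18 and −1.23), WDR43 (−1.27 and −1.21) and UTP15 (−1.0 and −1.07), which did not. FBL passed with ratios further apart (−2.61 and −3.83). With 1 library per condition and lot, the difference between lots could not be tested.

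**Figure D4:**
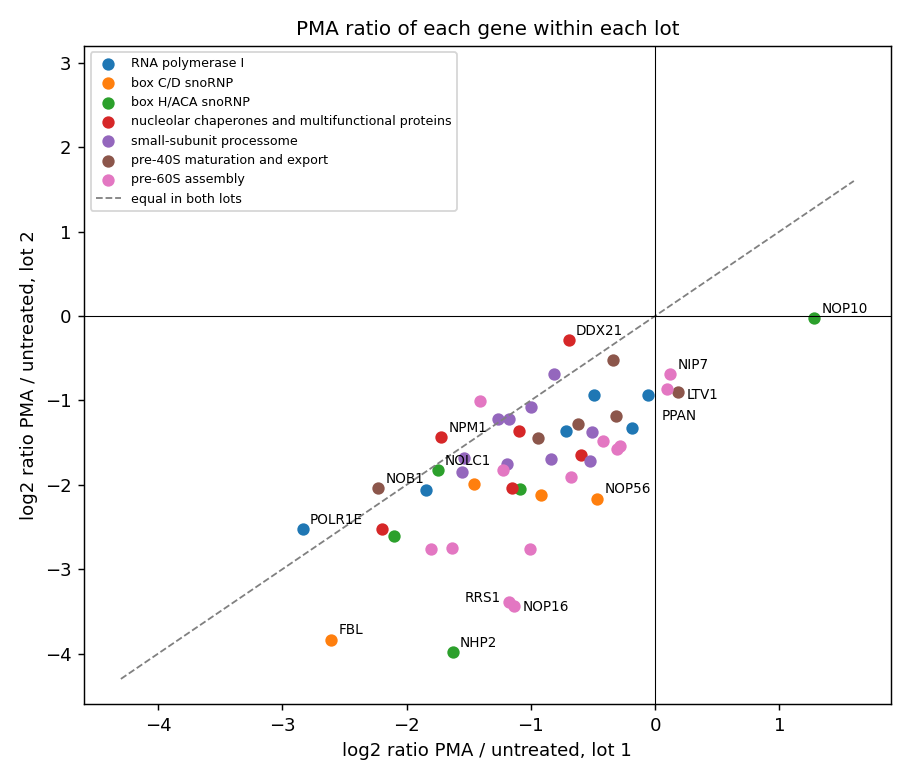
Log2 ratio of PMA to untreated normalised CPM in lot 2 against lot 1 for each of the 50 genes, coloured by step, with the dashed line where both lots are equal. Of the 50 points, 43 lie below the line, and NOP10, LTV1, PPAN and NIP7 lie right of 0 in lot 1 and below 0 in lot 2.

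The pathway holds many more genes, and 106 others from the same steps and from the nuclear exosome were read from the same fit. Of these 2 fell and 0 rose, with a median log2 fold change of −0.97, and the share that fell (1.89%) was near the 2.02% of all tested genes. With an unadjusted p under 0.05 there were 32, all lower (12.5% of tested genes), and DESeq2 called 26 lower and 0 higher (10.2% of tested genes lower). NLE1, a large-subunit assembly factor, fell from 42.1 and 42.1 CPM to 6.90 and 6.64 CPM (−2.64 ± 0.38, edgeR adjusted p = 0.0314). NAT10, the acetyltransferase of ribosomal RNA, fell from 123 and 154 CPM to 36.9 and 32.5 CPM (−2.00 ± 0.33, edgeR adjusted p = 0.0389, and 0.0544 with the replicate block). Leaving out PMA replicate 1 left 1 of the 106 called, leaving out PMA replicate 2 left 0, and leaving out untreated replicate 1 gave 28, beside 6.21% of tested genes.

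For comparison, 3 neighbouring lists were read from the same fit. Among 79 genes of cytosolic ribosomal proteins 13 fell and 0 rose (median −1.26), against 2.02% of tested genes lower, among them RPSA (−2.05 ± 0.28, edgeR adjusted p = 0.0281). With the replicate block 3 of them passed (1.48% of tested genes lower), and DESeq2 called 63 (10.2% of tested genes lower). At an unadjusted p under 0.05 there were 69, all lower (12.5% of tested genes lower). Of 20 cytosolic aminoacyl-tRNA synthetases, which charge transfer RNA with amino acids, 3 fell and 0 rose (median −1.18), among them FARSB (−2.42 ± 0.36, edgeR adjusted p = 0.0335). For the synthetases, beside the same shares of tested genes, the replicate block left 1, DESeq2 called 9, and 13 had an unadjusted p under 0.05, all lower. Of 20 subunits and factors of RNA polymerase III, which makes transfer RNA and the 5S RNA, 0 passed edgeR's test (median −0.45). An unadjusted p under 0.05 was found for 6, of which 5 were lower (12.5% of tested genes lower). In either direction, 4445 of the 16451 tested genes had such a p. DESeq2 called 2 of the 20 lower, close to the 10.2% of tested genes that it called lower. It called 1 of the 20 higher, and 2127 of the 16451 tested genes higher. Differences between lists were not tested.

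**Figure D5:**
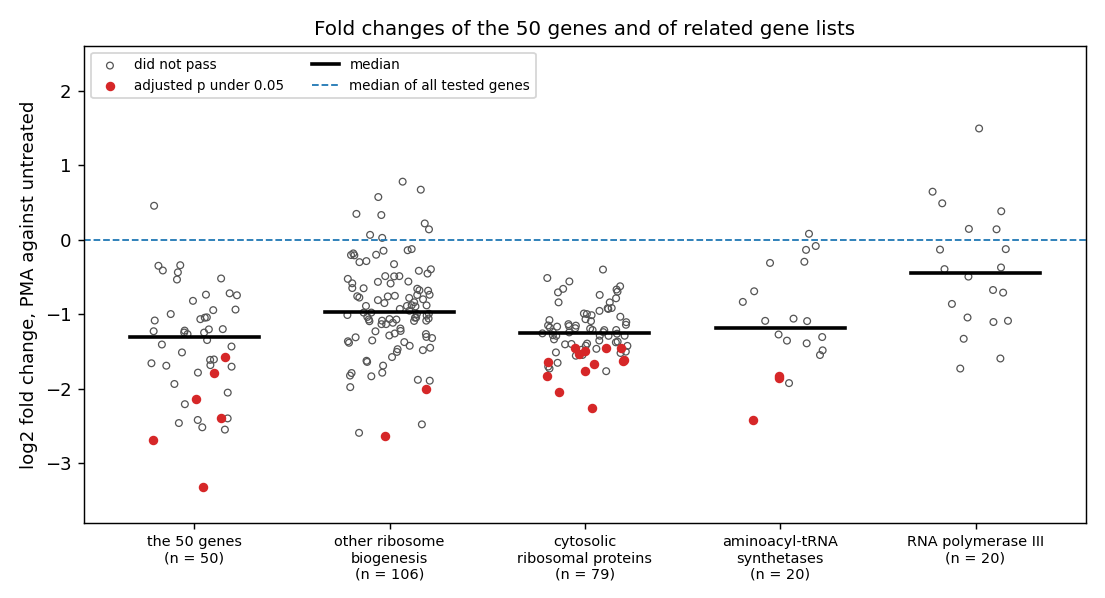
Log2 fold change with PMA of single genes (points) in the 50 genes and in 4 related lists, with the median of each list (black bar) and that of all tested genes (dashed line); red points passed an adjusted p under 0.05. The medians are −1.31 for the 50 genes, −0.97 for other ribosome biogenesis genes, −1.26 for ribosomal proteins, −1.18 for the synthetases and −0.45 for RNA polymerase III.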

How the data were processed

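The authors deposited estimated counts per gene as whole numbers, not scaled between libraries. HISAT2 2.1.0 and StringTie 2.1.1 appear, without roles, in the submitters' processing notes. Build, annotation and strand use (not given in the sources used here) cannot be stated, so overlapping and antisense genes are uncertain. A second table that the authors deposited holds their scaled counts as a signal, a log2 fold change and log2 mean, p-values and q-values, and a rank score. Per the file headers it was written from an object called tcc, and its test and settings are not named there.

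Counts were fitted over all genes with edgeR 4.0.16 in R 4.3.3 (TMM factors, filterByExpr, quasi-likelihood test, Benjamini-Hochberg adjustment over 16451 genes, threshold 0.05) and without a block. A standard error is the fold change divided by the root of F. Ratios within a lot use CPM plus 0.1. Lengths are of principal transcripts in GENCODE release 29, and promoters are from RefSeq (GRCh38.p14). Alternatives were RLE and upper-quartile factors, no filter, 5 CPM in 2 libraries, DESeq2 1.42.0, the lot as a replicate block, library sizes without mitochondrial genes, and leaving out each library. Titles pair the libraries by lot, and within a lot deviations correlated at 0.216 over tested genes.

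Steps were assigned by hand, and the 50 genes and all lists were chosen with earlier results of these data known. Named are all of the 50 past the threshold, the highest level and the highest and lowest fold change of each step, the others by value, and a few past the threshold from the other lists.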

Additional observations from a re-analysis of the deposited data

Results flagged for a closer look

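In 4 of the 50 genes the ratio of PMA to untreated was above 1 in lot 1 and below 1 in lot 2. The other 46 were lower with PMA in both lots, as were 35.9% of tested genes. How many of all tested genes changed direction between lots was not counted, so the 4 cannot be called many or few. The difference between the lots was not tested, since each lot has 1 library per condition. The log2 ratios in lots 1 and 2 were 1.28 and −0.023 for NOP10, 0.18 and −0.90 for LTV1, 0.10 and −0.87 for PPAN and 0.12 and −0.69 for NIP7. In each of the 4 genes the untreated library of lot 2 was above that of lot 1, most in NOP10 (99.5 and 273 CPM in lots 1 and 2). The ratio is divided by the untreated level, so this is not a separate observation. The untreated level was higher in lot 2 in 39 of the 50 genes and in 44.4% of tested genes.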

How the results depend on the processing

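The number of the 50 genes called lower was 6, with the same genes under RLE factors, upper-quartile factors and library sizes without mitochondrial genes, 6 again with NPM1 lost without a filter, and 5 with the replicate block. It was 11 with a filter of 5 CPM in 2 libraries, 29 with DESeq2, and 0 to 29 when 1 library was left out. Of all tested genes 2.02% were lower in the analysis as reported, 6.65% with that filter, 10.2% with DESeq2, and 0.438% to 6.21% when 1 library was left out. With RLE and upper-quartile factors, 1.93% and 2.39% of all tested genes were lower. The share was 2.09% with library sizes without mitochondrial genes, 1.38% without a filter and 1.48% with the replicate block. The replicate block kept 4 of the 6 calls and lost NOLC1 and NPM1. For the 106 other pathway genes the number lower was 2, with the same number under RLE factors, 3 under upper-quartile factors and with library sizes without mitochondrial genes, 4 without a filter, 10 with 5 CPM in 2 libraries, 26 with DESeq2, 1 with the replicate block, and 0 to 28 when 1 library was left out. No gene of either list was called higher in any alternative. The causes were not tested. Where a library is left out, the lone library of its group is assumed to vary like the others. The median log2 fold change of the 50 genes was −1.31 and stayed between −1.61 and −1.04. Upper-quartile factors moved the median of all genes to −0.17 and that of the 50 genes to −1.51. With 1 library left out in turn, the log2 fold change spanned −0.16 to 1.36 for NOP10, −0.83 to 0.058 for LTV1, −0.79 to 0.16 for NIP7 and −0.84 to 0.0022 for PPAN, changing sign. The lowest count of any of the 50 genes was 217, and edgeR's common coefficient of variation between libraries was 0.626.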

Other observations

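The nuclear exosome trims ribosomal RNA precursors from their ends. Of its 14 subunits and cofactors, 0 passed edgeR's test, with log2 fold changes from −2.59 to 0.78 and a median of −0.79. At an unadjusted p under 0.05 there were 5, and DESeq2 called 4, all lower (12.5% and 10.2% of tested genes lower). The summed level of the 14 was 651 and 797 CPM without PMA and 385 and 379 CPM with it, in lots 1 and 2. Of 9 further genes of RNA polymerase I and its factors, 0 passed edgeR's test, with a median of −1.05. Among the 9, 3 had an unadjusted p under 0.05 and DESeq2 called 3, all lower, beside the same shares of tested genes.

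CACGTG was present in 26.9% of 93 promoter windows of the other pathway genes and in 4.76% of 63 windows of cytosolic ribosomal protein genes. The median log2 fold changes of these lists were −0.97 and −1.26. Across the 50 genes, the log2 ratio of untreated lot 2 to untreated lot 1 had a Spearman's rho of −0.36 with transcript length. The same rho was −0.25 for the ratio of PMA lot 2 to PMA lot 1 and 0.32 for the log2 fold change with PMA, so longer transcripts had fold changes nearer to 0. These are descriptions over 50 genes of the same libraries, and the part of length in the fold changes was not tested.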
